A study of Rattus norvegicus with 15 samples.

Results

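Genes of amino acid and peptide transport across the small intestine were followed in Wistar rats, in sham-operated diabetic rats and in the Roux limb (RL) after gastric bypass. The 10 members are Slc15a1, Slc6a19, Slc7a9, Slc3a1, Slc1a1, Slc36a1, Slc1a5, Slc7a7, Slc3a2 and Slc7a8, and each probe that the array files name for one of them was taken apart from the others. Of the 17338 genes named on the array, these 10 genes had 10 probes, which covered 9 of the 10. No probe carries the name Slc6a19, the sodium-coupled carrier of neutral amino acids, so that gene was not analysed here. Slc1a5 has 2 probes, and the 9 probes of the members that were well above background (1 per gene) were tested.

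The Goto-Kakizaki (GK) rat descends from Wistar rats selected for poor glucose tolerance and develops type 2 diabetes without obesity. All animals were male, all were fasted overnight before sampling, and 1 array was hybridized per rat. In the GK-S-30 group (n = 5), GK rats had Roux-en-Y gastric bypass (RYGB) at 16 wk of age with an RL of 30 cm, and a piece of the RL was taken 14 wk later. The GK-Sham-PF group (n = 5) were GK rats that had a sham incision at 16 wk of age, 16 cm from the ligament of Treitz, where the RL of the other group began, that were pair-fed, and that were sampled 14 wk later. The Wistar rats (n = 5) were of matching age and had no operation. In both control groups the segment at the matching distance was taken. Wistar and GK-S-30 rats differ in strain and in surgery, whereas both GK groups share their strain. The p-values weigh a difference against the spread between these rats. With 1 array per rat, that spread also holds the error of labelling and hybridization.

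Dietary protein enters the enterocyte as small peptides and as free amino acids through carriers of the brush border. Peptides are taken up by a proton-coupled carrier, and amino acids by several systems that differ in the charge and size of their substrates. Amino acids leave the cell through exchangers of the basolateral membrane, several of which are pairs of a light chain that carries the substrate and a heavy chain that brings it to the membrane.

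The values rest on oligonucleotide probes of 60 bases. The first 30 bases of the probes of the 4 genes called higher in GK-S-30, and of the Slc1a5 probe that gave no usable signal, are shown because a value belongs to that stretch of transcript only. They are read from the array files, 5′ to 3′, and all letters are lower case because no base is singled out.
Slc15a1: attatgtgtaattcaaaagactattcaagt
Slc7a9: agagaaggacccagagtaaaaggcccatca
Slc1a1: tcctgtaaataaaacccaacaaaaactcgt
Slc1a5: agaggtctccaccctttgaaggcaaaatat
Slc1a5, second probe: tcccaagggaaagctaaagatgaatattgt
In the rat build rn4 that the files use, the whole probes lie at chr15:106050223-106050282 on the minus strand for Slc15a1, and on the plus strand at chr1:87998978-87999037 for Slc7a9, chr1:232551013-232551072 for Slc1a1 and chr1:77124932-77124991 for Slc1a5. The files give no position for the second Slc1a5 probe. Whether these positions are coding or untranslated was not analysed here. GC content was 35%, 45%, 38.3% and 35% for the 4 probes in that order.

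All values below are normalised signals on a log2 scale, where 1 unit is a doubling, and each value is given in the order of rats 1 to 5. Levels of different probes are not comparable. A difference is called when its limma p, adjusted by the Benjamini-Hochberg method over 17029 tested probes, is under 0.05. Because whole segments were sampled, fewer cells of a type and less RNA per cell cannot be told apart.

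Between GK-S-30 and Wistar rats, 4 of the 9 tested members were called, and all 4 were higher in GK-S-30: the glutamate carrier Slc1a1, the glutamine carrier Slc1a5, the peptide carrier Slc15a1 and the cystine carrier subunit Slc7a9. Over all tested probes 24.1% were called in this comparison, and 11.9% were called higher in GK-S-30. The 4 differences ran from 0.45 to 0.77 on the log2 scale. The means of all 9 members were higher in GK-S-30, although Slc3a1, Slc7a8 and Slc36a1 turned lower with slide as a fixed block and Slc3a1 also without certain arrays. Their median difference was 0.45, against -0.01 over all tested probes.

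None of the 9 was called between the GK groups (GK-S-30 against GK-Sham-PF), where 8.36% of all tested probes were, and none between GK-Sham-PF and Wistar, where 7.88% were. At an unadjusted limma p under 0.05 the counts were 1 and 2 of 9, where 3762 and 3322 of 17029 tested probes passed. The methods' comparison (a one-way model with Tukey's correction) gave 1 and 1, against 15.1% and 13.9% of all tested probes. The median difference of the members was 0.11 in the former comparison, against -0.02 over all tested probes. It was 0.37 in the latter, against 0.01. The comparisons share arrays, so their values are not separate evidence.

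**Figure D1:**
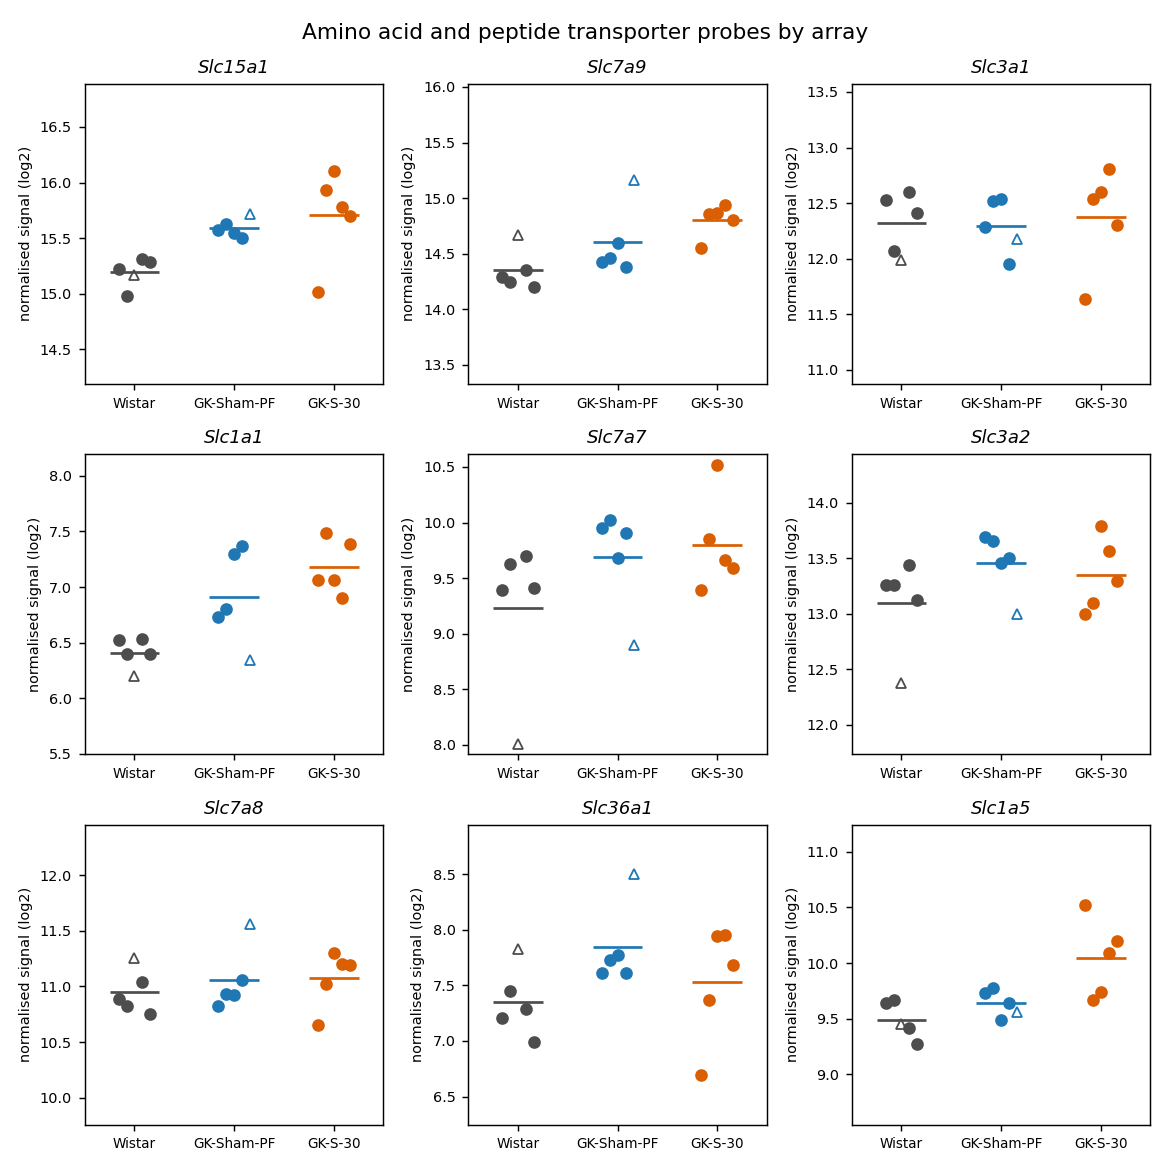
Normalised log2 signal of the 9 tested probes (vertical axis, the same span of 2.7 units in each panel) in the 3 groups (horizontal axis). Each point is 1 rat, horizontal lines are group means, and open triangles mark the 2 dim arrays, Wistar rat 3 and GK-Sham-PF rat 5. All 5 GK-S-30 rats lie above all 5 Wistar rats for Slc1a1, and 4 of 5 do for Slc15a1, Slc7a9 and Slc1a5.

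Slc15a1 encodes the proton-coupled peptide carrier of the brush border. It read 15.22, 14.98, 15.17, 15.31 and 15.29 in Wistar rats, 15.57, 15.63, 15.55, 15.50 and 15.72 in GK-Sham-PF rats, and 15.02, 15.93, 16.10, 15.78 and 15.70 in GK-S-30 rats. All sham-operated GK rats lay above all Wistar rats, as did 4 of the 5 GK-S-30 rats, while GK-S-30 rat 1 lay within the Wistar range. The spread was wider in GK-S-30 (SD 0.41) than in GK-Sham-PF (SD 0.09) or Wistar (SD 0.13). GK-S-30 exceeded Wistar by 0.51 (SE 0.16, 1.43-fold, limma adjusted p = 0.0261). GK-Sham-PF exceeded Wistar by 0.40 (95% interval 0.07 to 0.73), which was not called (limma adjusted p = 0.153). GK-S-30 and GK-Sham-PF differed by 0.11 (95% interval -0.22 to 0.44). Without GK-S-30 rat 1 the difference from Wistar was 0.68 (limma adjusted p = 0.000297), and the difference of GK-Sham-PF from Wistar, at 0.40, was then called (adjusted p = 0.0173). The call against Wistar was lost when Wistar rat 2 (adjusted p = 0.0631) or GK-S-30 rat 2 (0.0602), rat 3 (0.0688) or rat 4 (0.0513) was left out. With only the 2 groups compared in the fit it was lost as well (limma adjusted p = 0.0613).

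Slc7a9 encodes the light chain of the brush-border carrier for cystine and dibasic amino acids, and Slc3a1 its heavy chain. Variants of either gene cause cystinuria. Slc7a9 read 14.29, 14.25, 14.67, 14.35 and 14.20 in Wistar rats, 14.43, 14.46, 14.60, 14.38 and 15.16 in GK-Sham-PF rats, and 14.55, 14.86, 14.87, 14.94 and 14.80 in GK-S-30 rats. All GK-S-30 rats but rat 1 lay above every Wistar rat, and the highest Wistar and GK-Sham-PF values both came from the dim arrays. Its mean was 0.45 higher in GK-S-30 than in Wistar rats (SE 0.14, 1.37-fold, limma adjusted p = 0.032). Leaving out any one of Wistar rats 1, 2, 4 and 5 or GK-S-30 rats 2, 3, 4 and 5 raised the adjusted p to between 0.0562 and 0.0754. Without both dim arrays it was 0.000757, and Slc7a9 was then also called against GK-Sham-PF, 0.33 higher (limma adjusted p = 0.0283) in place of 0.20 (95% interval -0.11 to 0.50).

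The heavy chain Slc3a1 read 12.53, 12.07, 11.99, 12.60 and 12.41 in Wistar rats, 12.29, 12.52, 12.54, 11.95 and 12.18 in GK-Sham-PF rats, and 11.64, 12.54, 12.60, 12.81 and 12.30 in GK-S-30 rats. The groups overlapped throughout, and GK-S-30 rat 1 was the lowest of all 15. GK-S-30 and Wistar differed by 0.06 (95% interval -0.37 to 0.48), an interval that reaches past the 0.45 seen for the light chain. Whether both chains differ in their response was not tested.

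Slc1a1 encodes the sodium-coupled carrier of glutamate and aspartate. Its values were 6.52, 6.40, 6.20, 6.53 and 6.40 in Wistar rats, 6.73, 6.80, 7.30, 7.37 and 6.34 in GK-Sham-PF rats, and 7.06, 7.49, 7.06, 6.90 and 7.39 in GK-S-30 rats. All GK-S-30 rats lay above all Wistar rats, and 4 of the 5 GK-Sham-PF rats did, the exception being the dim array. GK-S-30 exceeded Wistar by 0.77 (SE 0.18, 1.71-fold, limma adjusted p = 0.00531), and this call held when any one array was left out. GK-Sham-PF exceeded Wistar by 0.50 (95% interval 0.12 to 0.88, limma adjusted p = 0.11). Without GK-Sham-PF rat 5 that difference was 0.64 and was called (adjusted p = 0.0194). The 0.27 between the GK groups (95% interval -0.11 to 0.65) was not called.

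The Slc1a1 probe is printed 10 times on each array, which gives the error of a spot. After 13 outlier spots were left out, the SD between spots of an array ran from 0.043 to 0.118 with a median of 0.066. The SD between rats was 0.134 in Wistar rats, 0.427 after sham surgery and 0.246 after RYGB. The SD between rats also holds the error of labelling and hybridization, which these spots do not measure. The other members have 1 spot per array and allow no such comparison.

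**Figure D2:**
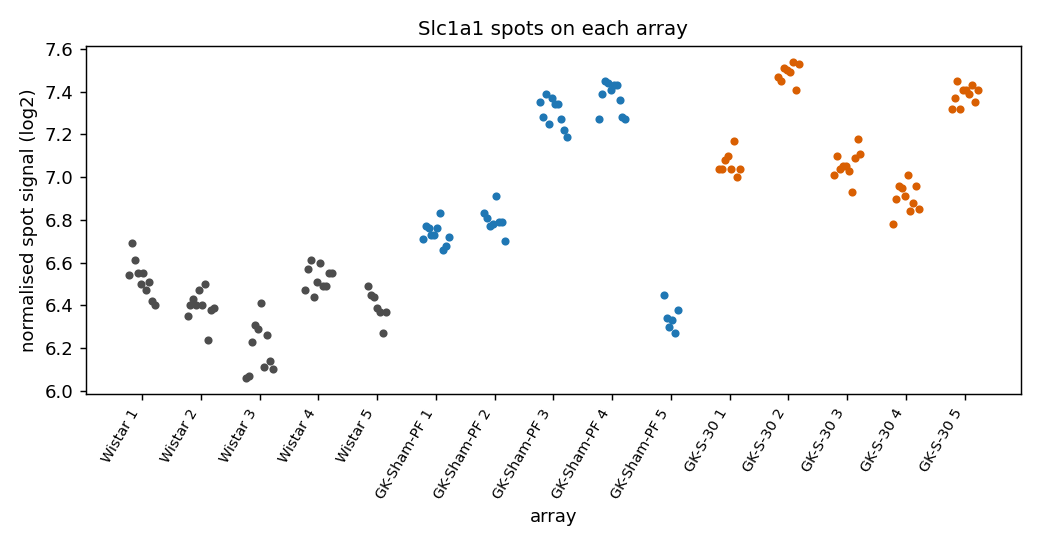
Normalised log2 signal (vertical axis) of each kept Slc1a1 spot on the 15 arrays (horizontal axis). Each point is 1 spot, and colours mark Wistar (grey), GK-Sham-PF (blue) and GK-S-30 (orange). Spots of an array cluster closely, while GK-Sham-PF rat means range from 6.34 to 7.37.

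Slc36a1 encodes a proton-coupled carrier of small neutral amino acids. It read 7.21, 7.45, 7.83, 7.29 and 6.99 in Wistar rats, 7.61, 7.73, 7.77, 7.61 and 8.50 in GK-Sham-PF rats, and 6.69, 7.37, 7.94, 7.95 and 7.68 in GK-S-30 rats. The groups overlapped, and the highest Wistar and GK-Sham-PF values again came from the dim arrays. Its mean was 0.49 higher in GK-Sham-PF than in Wistar rats (95% interval -0.02 to 1.01) and 0.32 lower after RYGB than after sham surgery (GK-S-30 minus GK-Sham-PF, 95% interval -0.83 to 0.19). Neither was called. With slide as a fixed block the latter difference was -1.03 (limma adjusted p in the blocked fit = 0.119). That value comes only from the slide that held rats of both GK groups, so the within-slide difference is the same number. It sets GK-Sham-PF rats 4 and 5, the latter the dim array, against GK-S-30 rats 1 and 2. Without both dim arrays and without a block, the difference was -0.16. On the files' coordinates this probe spans 1257 bases of the genome, so it crosses a gap of the alignment.

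Slc1a5 encodes the exchanger of glutamine and other neutral amino acids. The tested probe read 9.64, 9.67, 9.45, 9.42 and 9.27 in Wistar rats, 9.73, 9.78, 9.49, 9.64 and 9.56 in GK-Sham-PF rats, and 10.52, 9.67, 9.74, 10.09 and 10.20 in GK-S-30 rats. All GK-S-30 rats but rat 2 lay above every Wistar rat, and 3 lay above every GK-Sham-PF rat. GK-S-30 exceeded Wistar by 0.55 (SE 0.15, 1.47-fold, limma adjusted p = 0.0121), a call that held when any one array was left out. GK-S-30 exceeded GK-Sham-PF by 0.40 (95% interval 0.09 to 0.71), which was not called (limma adjusted p = 0.106). That difference was called without GK-S-30 rat 2, at 0.50 (adjusted p = 0.0448). The difference of 0.15 between GK-Sham-PF and Wistar (95% interval -0.16 to 0.46) was not called. The second Slc1a5 probe was not well above background on any of the 15 arrays, where it read 1.33 to 2.16, so it allows no comparison.

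Among the exchangers of the basolateral membrane none was called. Slc7a7, the light chain that exports dibasic amino acids, read 9.39, 9.63, 8.01, 9.70 and 9.41 in Wistar rats, 9.95, 10.02, 9.68, 9.91 and 8.90 in GK-Sham-PF rats, and 9.39, 9.85, 10.52, 9.66 and 9.59 in GK-S-30 rats. The dim arrays held the lowest values, and the groups overlapped. GK-S-30 exceeded Wistar by 0.57 (95% interval -0.09 to 1.24, limma adjusted p = 0.198), a larger difference than that of 3 called members but with an SE of 0.31. Without Wistar rat 3 the difference was 0.27.

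Slc3a2 encodes the heavy chain that pairs with Slc7a7 and Slc7a8. It read 13.26, 13.26, 12.38, 13.44 and 13.12 in Wistar rats, 13.69, 13.65, 13.46, 13.50 and 13.00 in GK-Sham-PF rats, and 13.00, 13.10, 13.79, 13.56 and 13.29 in GK-S-30 rats. All GK-Sham-PF rats but the dim array lay above every Wistar rat. GK-Sham-PF exceeded Wistar by 0.37 (95% interval -0.06 to 0.80), and GK-S-30 exceeded Wistar by 0.26 (95% interval -0.17 to 0.69).

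Slc7a8, the light chain that exchanges neutral amino acids, read 10.89, 10.82, 11.26, 11.04 and 10.75 in Wistar rats, 10.82, 10.93, 10.92, 11.06 and 11.56 in GK-Sham-PF rats, and 10.65, 11.02, 11.30, 11.20 and 11.19 in GK-S-30 rats. The groups overlapped, and the dim arrays were the highest of their groups. GK-S-30 exceeded Wistar by 0.12 (95% interval -0.21 to 0.45). It differed from GK-Sham-PF by 0.01 (95% interval -0.32 to 0.34).

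**Figure D3:**
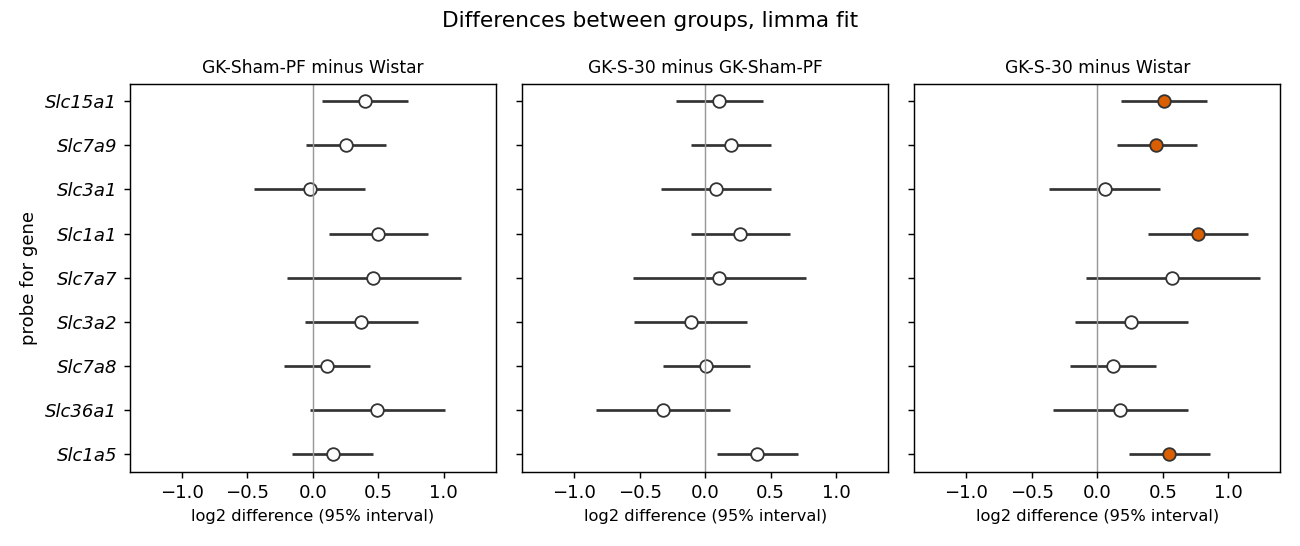
Difference between group means on the log2 scale (horizontal axis) for each tested probe (vertical axis) in the 3 comparisons. Points are limma estimates, bars 95% intervals, and filled points passed an adjusted p of 0.05. The 4 filled points all lie in the comparison of GK-S-30 with Wistar.

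Some arrays stood apart from their groups. Wistar rat 3 and GK-Sham-PF rat 5 were dim, with a 75th percentile of the processed signal of 224.5 each against 329.2 to 384.3 on the other 13 arrays. On 6 of the 9 members both lay outside the other 4 rats of their group in the same direction, below for Slc1a1, Slc7a7 and Slc3a2 and above for Slc7a9, Slc7a8 and Slc36a1. The same held for 45.8% of all tested probes. Without both arrays, 4 members were called against Wistar in GK-S-30, 1 (Slc1a1, 0.60) in GK-Sham-PF, and 1 (Slc7a9) between the GK groups, where 27.8%, 9.14% and 10.8% of all tested probes were called. GK-S-30 rat 1 was the lowest of its group for 7 of the 9 members and the highest for Slc1a5, while over all tested probes it was the lowest for 22.3%. Its summed signal of enterocyte markers was also the lowest of all 15 arrays.

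The arrays lay on 4 slides, and no slide held both Wistar and GK-S-30 arrays, so for these groups no within-slide difference exists. With slide as a fixed block, which links the groups through the GK-Sham-PF arrays, 0 of 9 members were called by limma, and 1.57% of all tested probes were. At an unadjusted limma p under 0.05 the count was 0 of 9, and 2483 of 17029 tested probes passed. In that fit Slc1a1 differed by 0.84 (adjusted p = 0.435), Slc1a5 by 0.52 (0.563), Slc15a1 by 0.24 (0.815) and Slc7a9 by 0.14 (0.889). Slide as a random block left 4 called, where 27.1% of all tested probes were. The correlation within slides was estimated there at -0.0449, so that fit made no allowance for arrays of a slide being alike. It therefore cannot be set against the fixed block. On the slide that held 2 rats of each GK group, GK-S-30 minus GK-Sham-PF was 0.42 for Slc1a1, 0.49 for Slc1a5, -0.13 for Slc15a1 and -0.06 for Slc7a9. These were GK-Sham-PF rats 4 and 5 and GK-S-30 rats 1 and 2, and so include the dim GK-Sham-PF array and the GK-S-30 array that stood apart. On the slide with 3 GK-Sham-PF rats and 1 Wistar rat, GK-Sham-PF minus Wistar was 0.42, 0.03, 0.37 and 0.20 in the same order. The other slides held 1 group each. The differences in the fixed-block fit therefore rest on these within-slide differences, which are not separate evidence.

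**Figure D4:**
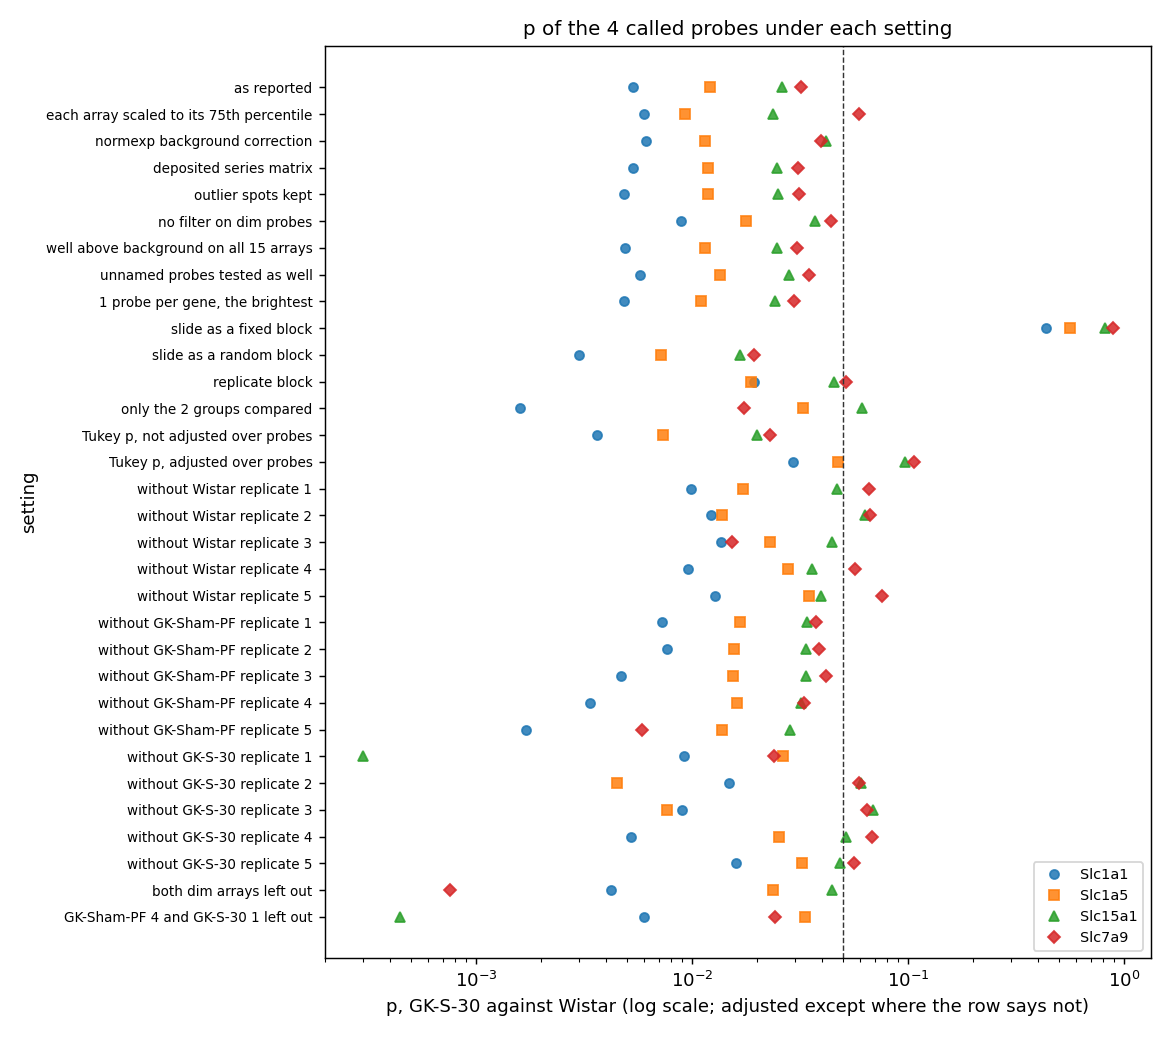
The p of GK-S-30 against Wistar (horizontal axis, log scale) for the 4 called members under each setting (vertical axis). The dashed line marks 0.05. Slc1a1 and Slc1a5 lie left of it in all settings but the fixed slide block, whereas Slc15a1 and Slc7a9 cross it in several.

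The tissue labels were checked against markers. All 9 measured enterocyte genes and all 10 epithelial genes were well above background on every array. Summed smooth muscle signal (9 genes) was 97450 to 123700 in GK-S-30, 28680 to 62370 in GK-Sham-PF and 31700 to 55840 in Wistar rats. Of 12 smooth muscle probes, 7 were called higher in GK-S-30 than in Wistar (58.3%, against 11.9% of all tested probes called higher). Summed enterocyte signal (9 genes) was 1019000 to 1194000 in GK-S-30, 1111000 to 1268000 in GK-Sham-PF and 1180000 to 1371000 in Wistar rats. Of 16 enterocyte probes, 4 (25%) were called in GK-S-30 against Wistar, all lower. Of all 17029 tested probes, 4104 (24.1%) were called in either direction and 2022 (11.9%) were called higher. About as many were thus called lower as higher, a smaller share than the 25% of enterocyte probes. In the same comparison, 3 of 12 epithelial probes (25%) and 4 of 6 goblet cell probes (66.7%) were called higher, against 11.9% of all tested probes. Leukocyte probes were called lower in 6 of 11 and higher in 1 (63.6%, against 24.1% of all tested probes in either direction). Summed signal of proximal small intestinal genes (6 genes) was 9069 to 13280 in GK-S-30, 12230 to 19730 in GK-Sham-PF and 13360 to 29920 in Wistar rats. The mean log2 signal of the same genes had a median of 10.58 in both GK groups and 11.27 in Wistar rats. The mean log2 signal of distal small intestinal genes (6 genes) was 10.23 to 10.84 in GK-S-30, 9.33 to 10 in GK-Sham-PF and 9.72 to 10.54 in Wistar rats. Their summed signal overlapped, at 15360 to 22560, 16130 to 20730 and 12970 to 20200 in that order. Over 9 proximal probes, GK-S-30 differed from GK-Sham-PF by a median of 0.19 (1 called higher, 1 lower, 22.2%). From Wistar it differed by a median of -0.06 (3 called lower, 33.3%). Over 7 distal small intestinal probes these medians were 0.16 (2 called higher, 28.6%) and 0.02 (3 higher, 1 lower, 57.1%). Of all tested probes, 8.36% and 24.1% were called. The part of tissue makeup or position in the members' differences was not tested.

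Of 46 other genes of amino acid and peptide transport, 29 had a tested probe, 38 probes in all. Between GK-S-30 and Wistar, 6 of these probes were called higher and 4 lower (26.3%, close to the 24.1% of all tested probes). In the comparison of both GK groups, 2 were higher after RYGB and 1 lower (7.89%, against 8.36% of all tested probes), and in GK-Sham-PF against Wistar 1 was higher and 3 were lower (10.5%, against 7.88%). Without both dim arrays the counts called were 12, 9 and 5 of 40 probes (30%, 22.5% and 12.5%, against 27.8%, 10.8% and 9.14% of all tested probes). Of those 9 and 5 calls, 2 (Slc36a2 and Slc7a10) and 1 (Slc36a2) were of probes that entered the test only then, through GK-Sham-PF, and were not well above background on any GK-S-30 array, so these counts are no measure of the list. With slide as a fixed block 1, 0 and 1 of 38 were called (2.63%, 0% and 2.63%, against 1.57%, 1.93% and 1.23%). In that blocked limma fit, 7 of the 38 probes had an unadjusted p under 0.05 in the second comparison, as had 2843 of 17029 tested probes. The Tukey comparison, which has no block, gave 6 (15.8%, against 15.1% of all tested probes).

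Of these 38 probes, the largest rise from Wistar to GK-S-30 was that of Slc25a29, a mitochondrial carrier of basic amino acids. Its brighter probe read 9.75 to 10.47 in GK-S-30 and 8.55 to 9.38 in Wistar rats with no overlap, a difference of 1.11 (SE 0.17, limma adjusted p = 0.000246). The dimmer probe gave 1.20 (adjusted p = 0.00235). Against GK-Sham-PF the brighter probe was 0.75 higher (limma adjusted p = 0.014). The dimmer probe was 0.76 higher there, with overlap, and was not called (adjusted p = 0.0679).

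Slc6a14, a carrier of neutral and basic amino acids, was 0.80 higher in GK-S-30 than in Wistar (SE 0.22, limma adjusted p = 0.0172). Slc16a10, which carries aromatic amino acids, was 0.41 higher with no overlap (SE 0.11, adjusted p = 0.0125). Slc6a6, the taurine carrier, was 0.52 higher in GK-S-30 rats, compared with GK-Sham-PF (SE 0.14, adjusted p = 0.0313), with no overlap. Compared with Wistar it was 0.20 higher and not called (limma adjusted p = 0.333). One of 2 probes of Slc6a8, the creatine carrier, was called higher in GK-S-30 than in Wistar, at 0.57, and the other differed by 0.35. The 3 probes of Slc43a2, a carrier of large neutral amino acids, disagree. They differed from Wistar by 0.46 (called), 0.53 and -0.15 in GK-S-30, and in the same order by 0.46, 0.75 (called, limma adjusted p = 0.0242) and -0.10 in GK-Sham-PF.

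Among the probes called lower, Slc25a15, the mitochondrial ornithine carrier, was lower in GK-S-30 rats, compared with GK-Sham-PF (log2 difference -0.46, limma adjusted p = 0.0258) and compared with Wistar (-0.47, adjusted p = 0.00823). Slc38a7 differed from Wistar by -0.61 in GK-Sham-PF (adjusted p = 0.0214) and by -0.75 in GK-S-30 (adjusted p = 0.00234). For Slc38a6, 2 of 3 probes differed from Wistar by -1.36 and -1.31 in GK-Sham-PF and by -1.30 and -1.33 in GK-S-30, with no overlap, while the third differed by 0.15 and 0.24 and was not called. The probes of Slc38a6 thus disagree. The dimmest of the 3 was well above background on 3 of 5 GK-S-30 arrays and on all arrays of the other groups.

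**Figure D5:**
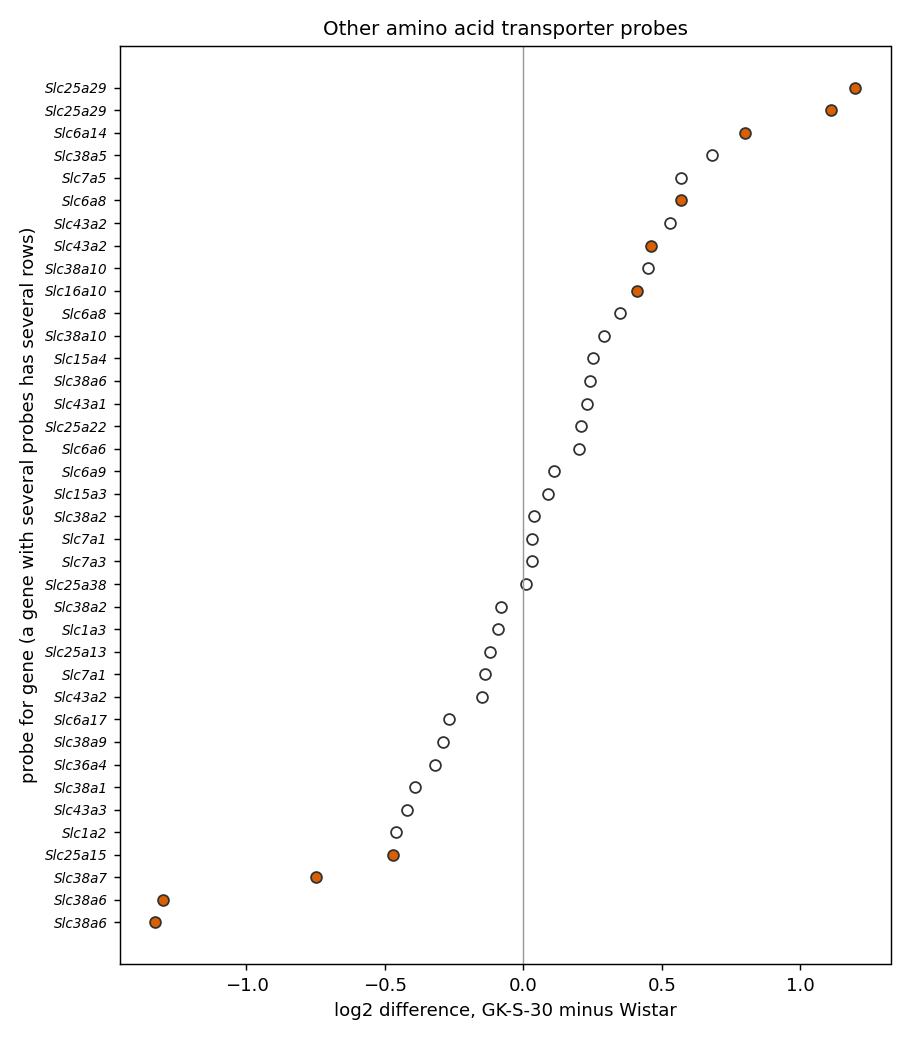
Difference between GK-S-30 and Wistar means on the log2 scale (horizontal axis) for the 38 tested probes of other amino acid transporters (vertical axis, 1 row per probe, ordered by value). Filled points passed an adjusted p of 0.05, 6 above 0 and 4 below.

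The carriers need partners at the membrane and a supply of protons and of the sodium gradient. Of 12 tested probes for 10 such genes, 1 was called between the GK groups (8.33%, against 8.36% of all tested probes), that of Slc9a2, a sodium-proton exchanger, which was lower after RYGB than after sham surgery (log2 difference -0.47, SE 0.14, limma adjusted p = 0.0459). Against Wistar 0 of the 12 were called by limma in either GK group, where 7.88% (GK-Sham-PF) and 24.1% (GK-S-30) of all tested probes were. In each, 1 had an unadjusted limma p under 0.05, as had 3322 and 6211 of the 17029 tested probes. The Tukey comparison gave 1 (GK-Sham-PF) and 0 (GK-S-30), against 13.9% and 27.5% of all tested probes.

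Amino acid shortage and other stresses act through the transcription factor ATF4, whose targets include genes of amino acid synthesis. Of 11 tested probes for 10 genes of that response, 2 were called higher in GK-S-30 than in Wistar and none lower (18.2%, against 24.1% of all tested probes). Asns, asparagine synthetase, was 0.81 higher (SE 0.21, limma adjusted p = 0.0103) and was also called against GK-Sham-PF, at 0.82 (adjusted p = 0.0232). Between the GK groups it was the only 1 of the 11 probes called (9.09%, against 8.36% of all tested probes). Shmt2, the mitochondrial serine hydroxymethyltransferase, was 0.34 higher than in Wistar (SE 0.11, adjusted p = 0.0399). Sesn2 and Trib3 of the same list differed from Wistar by -0.40 and -0.03 in GK-S-30 and were not called.

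The genes whose pattern over the 15 arrays was most like that of a member were found by the root mean square (RMS) difference of centred log2 values, and these likenesses are descriptions without a test. Slc7a7 was closest to Ace, a brush-border peptidase, with an RMS difference of 0.189 where the SD of Slc7a7 over the arrays was 0.564. Slc1a5 was closest to Car4, a carbonic anhydrase (0.146 against an SD of 0.325), and Slc3a1 to Xpnpep1, an aminopeptidase (0.13 against 0.313). Slc7a9 was closest to Uap1l1 (0.114 against 0.287) and Slc1a1 to Stbd1 (0.2 against 0.429). The arrays share the dim pair, and patterns set by those arrays enter every such likeness.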

How the data were processed

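RNA of 15 rats was measured on 1-colour Agilent arrays, 5 per group, and groups were taken from the sample labels. Intensity values were deposited by the authors as Agilent Feature Extraction 10.7 wrote them: the processed signal, corrected for background but unscaled across arrays, and each spot's mean signal with its background median. In the series matrix the authors deposited log2 values after quantile normalization.

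Control and outlier spots were removed and spots averaged per probe. Quantile normalization of log2 processed signals used limma (version 3.58.1, under R 4.3.3), and figures used matplotlib 3.10.9. Named probes were tested where all arrays of 1 or more groups were well above background, 17029 in all, each apart; 66.71% to 74.75% of probes were well above background per array, and the number of arrays limits the precision. One limma model over all arrays gave the 3 comparisons (lmFit, contrasts.fit, eBayes, Benjamini-Hochberg, 0.05). The methods' one-way comparison with Tukey's correction was run beside it. This scaling takes the overall distribution as equal between rats. The fit was tested on simulated data without slide effects or dim arrays, so that check does not cover either.

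Alternatives covered scaling, normexp (offset 50), the matrix, spot and probe filters, slide, replicate number and left-out arrays. Members and gene lists were chosen with earlier results of these data known. The text names all members, listed genes with a called probe, and for likeness the genes nearest to each member. It also names Slc9a3, Sesn2 and Trib3, listed genes without a call that went the other way.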

Additional observations from a re-analysis of the deposited data

Results flagged for a closer look

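Within groups of 5, 72 sets of values were searched, from the members' tested probes and the listed probes called with all arrays. The search was for a rat whose gap to its nearest neighbour took up most of the group's range. It found 8, where chance gives about 1 in 20. Of the 8, 5 came from the 2 dim arrays. GK-Sham-PF rat 5 was highest for Slc7a9 (15.16, next 14.60), Slc36a1 (8.50, next 7.77), Slc6a14 (6.45, next 5.73) and Slc16a10 (10.59, next 10.24). Wistar rat 3 was lowest for Slc7a7 (8.01, next 9.39). GK-Sham-PF rat 3 was lowest for Slc6a6 (7.22, next 7.44), GK-S-30 rat 1 lowest for Slc16a10 (10.30, next 10.62), and Wistar rat 2 highest for Slc9a2 (14.24, next 13.73). The cause of these values was not tested.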

How the results depend on the processing

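Of the 9 members, the count called between GK-S-30 and Wistar was 4, where 24.1% of all tested probes were called. It became 0 with slide as a fixed block (1.57% of all) and 2 with Tukey p-values adjusted over probes (15.8% of all). With only the 2 groups compared in the fit it was 3 (22% of all). It ran from 2 to 4 when 1 array was left out (19.7% to 26.4% of all). Between the GK groups it was 0 and became 1 by unadjusted Tukey p (15.1% of all tested probes) and without both dim arrays (10.8%). Between GK-Sham-PF and Wistar 0 became 1 by unadjusted Tukey p (13.9%), without both dim arrays (9.14%) and with only the groups compared in the fit (7.56%). It also became 1 without GK-Sham-PF rat 4 and GK-S-30 rat 1 (6.42%), an alternative chosen after seeing the data for their marker levels. With 1 array left out both ran from 0 to 1. The shares of all tested probes were then 5.49% to 10.1% between the GK groups and 5.85% to 8.57% between GK-Sham-PF and Wistar. The cause was not tested.

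Small differences changed sign. With slide as a fixed block, GK-S-30 minus GK-Sham-PF was -0.13 for Slc15a1, -0.06 for Slc7a9 and -0.48 for Slc7a8, GK-S-30 minus Wistar was -0.06 for Slc3a1, -0.48 for Slc7a8 and -0.54 for Slc36a1, and Slc7a8 was 0.00 in GK-Sham-PF against Wistar. Without both dim arrays Slc7a7 was -0.09 between the GK groups and Slc3a1 -0.03 in GK-S-30 against Wistar, and in the added alternative Slc3a1 was 0.06 in GK-Sham-PF against Wistar. With 1 array left out, Slc3a1 ran from -0.03 to 0.26 (GK-S-30 against GK-Sham-PF), -0.11 to 0.06 (GK-Sham-PF against Wistar) and -0.05 to 0.24 (GK-S-30 against Wistar), Slc7a7 from -0.09 to 0.21 between the GK groups, and Slc7a8 from -0.05 to 0.14 there and -0.02 to 0.18 in GK-Sham-PF against Wistar.

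Replicate numbers did not pair the rats: of 15 same-numbered pairs 3 had deviations correlated above 0.1, and the range was -0.29 to 0.20. With the replicate block, 3 members were called between GK-S-30 and Wistar, Slc7a9 (adjusted p = 0.0513) no longer. Scaling to the 75th percentile likewise left 3. Over all tested probes 19.7% were called with the replicate block and 24.5% with that scaling. Over all settings with a test, the limma or Tukey p of GK-S-30 against Wistar ran from 0.0016 to 0.435 for Slc1a1, 0.00446 to 0.563 for Slc1a5, 0.000297 to 0.815 for Slc15a1 and 0.000757 to 0.889 for Slc7a9.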
